A study of Mus musculus with 4 samples.

Results

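Medullary thymic epithelial cells (mTECs) were sorted from wild-type C57BL/6 mice aged 6 to 8 weeks. RNA of 10 mice was pooled for each of 4 samples. The labels number the pools of each sex 1 and 2. The comparison set the 2 pools numbered 2, 1 from females and 1 from males, against the 2 pools numbered 1, again 1 of each sex, so that all 4 samples of the series were used. No treatment or mutation separated the groups, and the pool number was the only labelled difference between them. The cells were gated as negative for propidium iodide and CD45, positive for MHC class II and low for Ly51. Polyadenylated RNA was amplified with the SMARTer Ultra Low kit and sequenced as 50-base reads. The library names of all 4 pools share a preparation label. The sort day, amplification batch and sequencing run of each pool are not given in the sources used here, so a difference between mice and a difference in sorting, amplification or sequencing cannot be told apart.

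The thymic medulla displays self antigens to developing T cells. mTECs transcribe genes of many peripheral tissues, called tissue-specific antigens (TSAs), under Aire and other factors, and some mTECs take on the look of tuft, microfold, gut, muscle or cornified skin cells. B cells, dendritic cells, macrophages and thymocytes lie beside them and touch them closely, and some of these cells also carry MHC class II.

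Gene counts summed to 3508921 in female pool 1, 7103627 in male pool 1, 1976272 in female pool 2 and 3344471 in male pool 2, so pool 1 was the deeper of each pair. Levels are normalized CPM, the counts of a gene per 1000000 counts of its library, scaled by TMM, which corrects each library for its composition, with factors of 1.05, 1.18, 1.03 and 0.780 in the same order. At the depth of the smallest library, 14315 and 14646 genes were expected with a read in pools 1 and 14895 and 14843 in pools 2. The label was checked on defining markers. Of 20 epithelial markers 16 passed the filter on low counts, and Foxn1, Trp63, Grhl2 and Pax1 did not. Epcam had 37.0 CPM in female pool 1, 44.0 in male pool 1, 42.6 in female pool 2 and 51.6 in male pool 2. Despite the CD45 gate, Ptprc, which encodes CD45, had 280.0 CPM in female pool 1, 304 in male pool 1, 179.6 in female pool 2 and 219 in male pool 2, and Cd79a, a chain of the B cell receptor complex, had 2434 CPM in female pool 1, 1861 in male pool 1, 1542 in female pool 2 and 1456 in male pool 2. The tested epithelial markers summed to 478, 550, 861 and 816 CPM in the same order. The 23 tested B cell genes summed to 7610, 6369, 5153 and 4084 CPM. The pools therefore held much RNA of leukocytes, and B cell markers exceeded epithelial markers in each pool. The share of cells of each type was not measured. In pooled RNA fewer cells of a type and less RNA per cell cannot be told apart.

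The first question was which genes differed between pool 2 and pool 1 in the same direction in both sexes. In total, 202 genes were higher and 19 genes were lower in pool 2 among 10865 genes tested. A gene was called when it passed an adjusted p of 0.05 in edgeR's quasi-likelihood test and its CPM moved the same way in the female pair and in the male pair. This was 1.86% of the tested genes called higher and 0.175% called lower. All 221 genes past the threshold agreed in direction in both pairs. In each of them the pools 2 did not overlap the pools 1. Without a test, both pools 2 were above both pools 1 in 26.5% of tested genes and below them in 29.0%. The pair differences shared a sign in 3394 genes upward (31.2%) and 3800 downward (35.0%). Genes called higher had a median log2 fold change of 2.13 (range 1.11 to 4.76) and those called lower one of -1.50 (range -3.90 to -1.17), against -0.03 over all tested genes. At equal depth, with all pools thinned at random to the smallest library, the median over 20 draws was 1 call (range 0 to 153). Genes with an unadjusted p under 0.05 numbered 2028 in the median draw and 2571 at full depth. Without female pool 2 the calls numbered 2620, and without male pool 1, 174. Without scaling for composition the median of all genes was -0.35, and the calls split evenly, with 375 higher and 383 lower. The lowest adjusted p was 0.0202. The pools 2 were less alike than the pools 1. Over tested genes, log2 CPM correlated at 0.969 between the pools 1 and at 0.936 between the pools 2. Female pool 2 was as close to female pool 1 (0.938) as to male pool 2. Male pool 2 was furthest from the pools 1, at 0.891 with the female and 0.884 with the male.

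**Figure D1:**
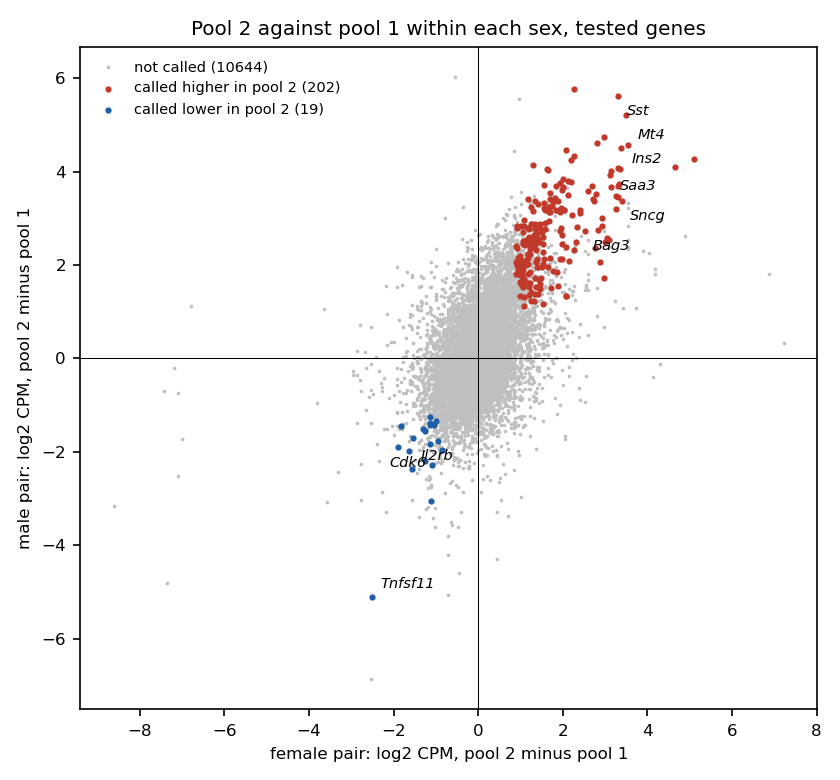
Log2 difference of normalized CPM, pool 2 minus pool 1, in the female pair (x axis) and in the male pair (y axis) for each of 10865 tested genes, with genes called higher in red and called lower in blue. The 202 genes called higher lie in the upper right, with Bag3 near the diagonal, and Tnfsf11 lies lowest among the 19 called lower.

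The gene with the lowest p was Bag3 (chr7:135667097-135690491 in mm9), a co-chaperone that binds HSP70. Bag3 had 17.1 CPM in female pool 1, 14.6 in male pool 1, 98.0 in female pool 2 and 97.0 in male pool 2. The 2 values in each group nearly coincided, and the difference was 6.19-fold (log2 fold change 2.63, standard error 0.24, adjusted p = 0.0202). The other 14 genes called higher with the lowest p were Sncg, Dapl1, 2200002D01Rik, Fcgbp, Saa3, Gng13, Prap1, Lypd2, Hspb1, Cst6, Mt3, Mt2, Tmem119 and Batf3. Sncg, which encodes gamma-synuclein, had 1.90 and 3.11 CPM in the female and male pools 1 and 20.3 and 32.3 in the pools 2, a log2 fold change of 3.31 (standard error 0.39). Fcgbp, a component of mucus, had 12.0 and 10.3 CPM in the female and male pools 1 and 38.6 and 45.4 in the pools 2 (log2 fold change 1.93, standard error 0.26). Cst6, a secreted protease inhibitor of skin, had 1.90 and 3.35 CPM in the female and male pools 1 and 19.8 and 56.6 in the pools 2 (log2 fold change 3.77), with male pool 2 the highest sample for Sncg, Fcgbp and Cst6 alike. Of 92 called genes named here, 17 with a known length kept their call without each pool in turn, with another scaling and with a correction for gene length and GC content, namely 2200002D01Rik, Bag3, Cdk6, Cst6, Eif2ak3, Fcgbp, Gng13, Hk2, Hspb1, Il2rb, Krtdap, Lypd2, Mt3, Prap1, Saa3, Sncg and Tmem119. Wfdc18 kept its call too, but it and Wfdc17 had no length, so the correction could not act on them. Equal depth was not among these settings, and there 1 of the 92 genes kept its call in most of the 20 draws. The correction lowered the log2 fold change of Saa3 from 3.70 to 2.16, of Krtdap from 3.55 to 1.94, of Mt3 from 3.14 to 1.62, of Lypd2 from 3.53 to 2.05, of Prap1 from 4.27 to 2.89, of Gng13 from 4.08 to 2.86, of Sncg from 3.31 to 2.24 and of Hspb1 from 2.63 to 1.77.

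Heat shock chaperones and metallothioneins were among the genes called higher in pool 2. Cells make the inducible chaperones when proteins misfold, under heat shock factors that bind heat shock elements, and make metallothioneins, which bind zinc and copper, under a metal-sensing factor that binds metal response elements. The members of this list and of the other lists were chosen with earlier results of these data known. Of 15 heat shock genes tested, 5 were called higher and 0 lower, against the 1.86% called higher over all genes. The list median was a log2 fold change of 0.41. Of the 15, 8 were higher and 4 lower in both pairs, against 31.2% and 35.0% of all genes, and 3 of 5 HSP70 genes were lower in both. Promoter letters are shown for called chaperones and metallothioneins. The sequences are the 250 bases before the RefSeq start of each gene on the GRCm38.p6 assembly, read on the gene's strand. Capitals mark matches on either strand to GAANNTTC, a core of the heat shock element, in Hspb1 (chr5:135887669-135887918, plus strand) and Hspa1a (chr17:34972157-34972406, minus strand). Bag3 (chr7:128523333-128523582, plus strand) is printed beside them and held no match. They mark matches to TGCACNC or TGCGCNC, the core of the metal response element, in Mt1 (chr8:94178839-94179088, plus strand) and Mt2 (chr8:94172368-94172617, plus strand).
Hspb1: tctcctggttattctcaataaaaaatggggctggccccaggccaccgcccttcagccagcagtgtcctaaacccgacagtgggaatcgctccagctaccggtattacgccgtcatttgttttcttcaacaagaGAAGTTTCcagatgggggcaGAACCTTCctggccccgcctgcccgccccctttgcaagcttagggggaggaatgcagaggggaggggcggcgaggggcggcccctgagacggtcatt
Hspa1a: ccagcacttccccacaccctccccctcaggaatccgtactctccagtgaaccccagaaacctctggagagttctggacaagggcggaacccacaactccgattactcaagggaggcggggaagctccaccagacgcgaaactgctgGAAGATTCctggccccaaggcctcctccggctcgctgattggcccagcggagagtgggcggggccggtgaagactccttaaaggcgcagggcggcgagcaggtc
Bag3: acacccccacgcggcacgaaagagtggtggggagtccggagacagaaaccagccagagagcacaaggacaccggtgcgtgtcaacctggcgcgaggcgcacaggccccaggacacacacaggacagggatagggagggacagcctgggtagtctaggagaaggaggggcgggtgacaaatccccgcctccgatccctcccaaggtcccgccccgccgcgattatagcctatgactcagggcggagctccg
Mt1: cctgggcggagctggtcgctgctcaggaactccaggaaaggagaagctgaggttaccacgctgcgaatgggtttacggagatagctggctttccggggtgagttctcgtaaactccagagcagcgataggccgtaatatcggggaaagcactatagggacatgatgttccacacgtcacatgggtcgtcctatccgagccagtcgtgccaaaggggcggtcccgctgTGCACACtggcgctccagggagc
Mt2: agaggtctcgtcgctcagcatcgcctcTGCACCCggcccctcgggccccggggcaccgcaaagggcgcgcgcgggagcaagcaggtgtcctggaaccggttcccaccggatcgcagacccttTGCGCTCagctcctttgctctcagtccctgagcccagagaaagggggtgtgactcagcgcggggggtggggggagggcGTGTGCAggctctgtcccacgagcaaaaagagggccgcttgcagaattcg
The heat shock motif was found in 3 of the 5 called genes, Hspa1a, Hspa1b and Hspb1, and in 3 of 6 list members that had a promoter sequence and were not called, against 6.69% of 32851 promoters of the same length. A gene counted when any of its promoters matched, while the background is per promoter. Hspa1a and Hspa1b matched at the same place in near-identical promoters, and Hspd1 and Hspe1 shared a site, so the matches were not independent. The called genes Bag3 and Hsph1 held no match to the heat shock motif in this window. The metal motif was found in 3 of the 4 metallothionein genes, Mt1, Mt2 and Mt4 but not Mt3, against 21.4% of promoters.

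Among the chaperones, Hspa1a, an inducible HSP70, had 214 CPM in female pool 1, 205 in male pool 1, 783 in female pool 2 and 742 in male pool 2. Hspb1, a small heat shock protein, had 15.2 CPM in female pool 1, 21.7 in male pool 1, 76.7 in female pool 2 and 154 in male pool 2. Both pools 2 were above both pools 1 in each of these genes, by 3.64-fold for Hspa1a (log2 fold change 1.86, standard error 0.30, adjusted p = 0.0391) and by 6.18-fold for Hspb1 (log2 fold change 2.63, standard error 0.36, adjusted p = 0.0391). Hspa1b, a near-identical copy of Hspa1a whose reads may be split between them, had a log2 fold change of 1.73 (standard error 0.29). Hsph1, which helps HSP70 exchange its nucleotide, had one of 1.63 (standard error 0.34). Other members were not called. Hspa8, the constitutive HSP70, had 4049 and 4396 CPM in the female and male pools 1 and 3654 and 3868 in the pools 2 (log2 fold change -0.17, adjusted p = 0.842). Dnajb1, an HSP40 that heat also induces, had 202 and 223 CPM in the female and male pools 1 and 388 and 386 in the pools 2 (log2 fold change 0.86, adjusted p = 0.111). Without female pool 1, Hspa1a (edgeR adjusted p = 0.146), Hspa1b (0.180) and Hsph1 (0.313) were no longer called. Without male pool 1 the values were 0.248 for Hspa1a and 0.237 for Hspa1b.

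All 4 metallothioneins were called higher in pool 2, against 1.86% of all genes. Each had an exonic length under 1000 bases, and of the 480 tested genes that short 75 were called higher. Mt1 had 202 CPM in female pool 1, 163 in male pool 1, 693 in female pool 2 and 1673 in male pool 2. Mt2 had 29.6 CPM in female pool 1, 28.2 in male pool 1, 115 in female pool 2 and 264 in male pool 2. In both genes the pools 1 were close together and male pool 2 was the highest sample. Log2 fold changes were 2.70 (standard error 0.46) and 2.72 (standard error 0.38), both with an adjusted p of 0.0391. Mt3, known from neurons, had 6.25 and 4.90 CPM in the female and male pools 1 and 27.2 and 68.5 in the pools 2 (log2 fold change 3.14, standard error 0.44). Mt4, known from stratified epithelium, had 4 counts over both pools 1 and 31 over both pools 2, a ratio of 20.2 (95% interval 7.15 to 78.8, which covers counting error only). Mt1 was not called without male pool 1 (adjusted p = 0.0894), and Mt4 was not tested without male pool 2, where it fell under the filter on low counts. With the correction for length and GC the values fell to 1.23 for Mt2 and 1.44 for Mt1, and Mt2 and Mt4 lost their calls.

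**Figure D2:**
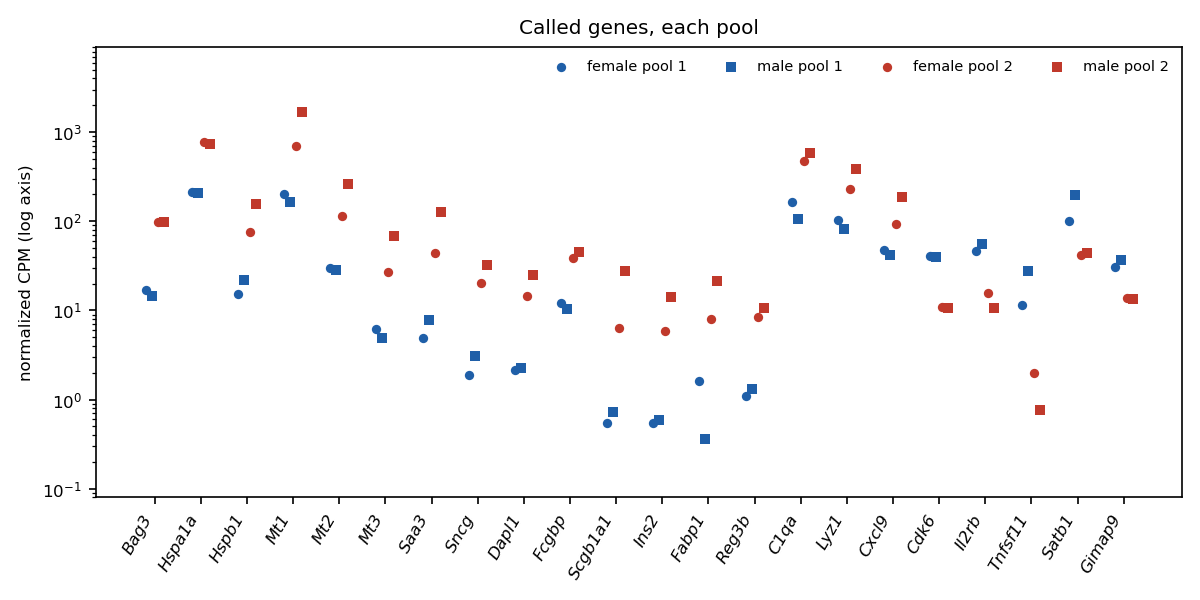
Normalized CPM (log axis) of 22 called genes in each pool, with circles for females, squares for males, blue for pool 1 and red for pool 2. In each gene the 2 red points lie on one side of the 2 blue points, above them from Bag3 to Cxcl9 and below them from Cdk6 to Gimap9.

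Genes of the peripheral tissues that mTECs display were the next group. Of 8 tested TSAs that the study names, 3 were called higher and 0 lower, against 1.86% called higher over all genes. In both pairs 7 were higher, against 31.2% of all genes. The median exonic length of the 8 was 966 bases, and of the 480 tested genes under 1000 bases 75 were called higher. The list's median log2 fold change was 2.27, and its summed level was 47.6 CPM in female pool 1, 53.3 in male pool 1, 98.0 in female pool 2 and 227 in male pool 2. Ins2, which encodes insulin and is regulated by Aire, had 0.544 CPM in female pool 1, 0.597 in male pool 1, 5.94 in female pool 2 and 14.2 in male pool 2. Both pools 2 were above both pools 1 (log2 fold change 4.09, standard error 0.61, adjusted p = 0.0391). The pools 1 held at most 5 counts each. Reg3b, an antimicrobial lectin also regulated by Aire, had 1.09 and 1.31 CPM in the female and male pools 1 and 8.41 and 10.8 in the pools 2 (log2 fold change 2.94, standard error 0.45, adjusted p = 0.0391), and Fabp9, a lipid carrier of the testis that the study counts as Aire independent, had 1.09 and 1.67 CPM in the female and male pools 1 and 5.94 and 15.4 in the pools 2 (log2 fold change 2.88, standard error 0.55, adjusted p = 0.0451). Both kinds were thus among the calls, and whether the kinds differed was not tested. Tyr, which makes melanin, had 21.7 and 17.7 CPM in the female and male pools 1 and 25.7 and 103 in the pools 2 (log2 fold change 1.73, adjusted p = 0.0972). Pmel, a melanosome protein, had 3.26 and 3.70 CPM in the female and male pools 1 and 2.97 and 3.08 in the pools 2 (log2 fold change -0.22, adjusted p = 0.824). Without male pool 2, Ins2 (edgeR adjusted p = 0.102), Reg3b (0.0847) and Fabp9 (0.203) were not called. With the correction for length and GC the median was 1.53 and Ins2 alone kept its call.

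Genes of gut, pancreas, milk and saliva gave like values. Spink3, a trypsin inhibitor of the pancreas, had 0.815 CPM in female pool 1, 3.46 in male pool 1, 21.3 in female pool 2 and 60.1 in male pool 2. Its log2 fold change was 4.04 (standard error 0.60). Reg1, a pancreatic lectin, had one of 3.47 (standard error 0.70), the other call among 5 tested members of a list of milk, saliva and gut antigens. All 5 were higher in both pairs, against 31.2% of all genes. The members not called were Csn2 (milk casein, log2 fold change 1.15, adjusted p = 0.0826), Tff3 (a mucus peptide, 3.90, adjusted p = 0.0558) and Bpifa1 (an airway and saliva protein, 1.60, adjusted p = 0.0618). Peptide hormones, a family chosen after the values were seen, had 8 members tested, of which 5 were called higher and 8 were higher in both pairs, against 1.86% and 31.2% of all genes. Each of the 8 had an exonic length under 1000 bases, and of the 480 tested genes that short 75 were called higher. Sst, which encodes somatostatin, had 2 counts over both pools 1 and 25 over both pools 2, a ratio of 32.6 (95% interval 8.13 to 284.1, counting error only). Secretin, Sct, had 10.9 and 13.5 CPM in the female and male pools 1 and 39.1 and 123 in the pools 2 (log2 fold change 2.72, standard error 0.48). Peptide YY, Pyy, had 0.815 and 1.79 CPM in the female and male pools 1 and 7.42 and 23.1 in the pools 2 (log2 fold change 3.41, standard error 0.61). Ppy was called with a log2 fold change of 2.81. Iapp (2.65, adjusted p = 0.0562), Gip (2.47, adjusted p = 0.0651) and Cck (1.84, adjusted p = 0.117) did not pass. Without male pool 2, Pyy (adjusted p = 0.143) and Ppy (0.143) lost their calls and Sst and Reg1 were not tested, without male pool 1 Sst did (adjusted p = 0.0666). With the correction for length and GC Spink3, Reg1, Sct, Pyy and Ppy were not called.

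Several secreted-protein families, also chosen after their values were seen, held further calls, against 1.86% of all genes called higher. Many of their members were short, and of the 480 tested genes under 1000 bases 75 were called higher. All 3 tested serum amyloid A genes, which encode acute-phase apolipoproteins, were called higher. Saa3 had 4.89 CPM in female pool 1, 7.77 in male pool 1, 43.5 in female pool 2 and 126 in male pool 2. This was the widest gap of the 3 in CPM, with a log2 fold change of 3.70 (standard error 0.50). Saa1 had one of 3.11 (standard error 0.51) and its near copy Saa2 had 4 counts over both pools 1 and 23 over both pools 2, a ratio with a 95% interval of 5.13 to 59.7 (counting error only). All 3 tested WAP-domain genes were called, of which Wfdc18 had 25.3 and 27.7 CPM in the female and male pools 1 and 122 and 561 in the pools 2 (log2 fold change 3.69). Fatty acid binding proteins had 4 of 5 members called. Fabp1, the liver and gut form, had 1.63 and 0.358 CPM in the female and male pools 1 and 7.92 and 21.2 in the pools 2 (log2 fold change 4.17, standard error 0.71). Apolipoproteins had 3 of 7 called, Apoa4, Apoc1 and Apoc2, at log2 fold changes of 2.16, 2.85 and 2.59. Beta-defensins had 2 of 3 called, Defb19 (3.31) and Defb6 (3.61). S100 calcium-binding proteins had 3 of 12, S100a1 (2.25) and S100g (3.29) among them. Scgb1a1, the club cell secretory protein of the airway and the second largest log2 fold change after Sst among the calls, had 0.544 and 0.717 CPM in the female and male pools 1 and 6.43 and 27.7 in the pools 2 (log2 fold change 4.67, standard error 0.75). Prap1, a secreted protein of the gut, had 0.272 and 1.08 CPM in the female and male pools 1 and 10.4 and 21.2 in the pools 2. Spink4, a gut protease inhibitor, had 4 counts over both pools 1 and 25 over both pools 2, a ratio of 16.3 (95% interval 5.63 to 64.5). Without male pool 2, Scgb1a1 (edgeR adjusted p = 0.0941), Fabp1 (0.105), Saa1 (0.0701), Apoa4 (0.0544), Wfdc2 (0.129), Fabp6 (0.108), Defb19 (0.162), Defb6 (0.246) and S100g (0.0965) were not called and Saa2 and Spink4 were not tested. Without male pool 1 neither Saa2 (0.0926) nor Spink4 (0.134) was called. The correction for length and GC ended the calls of Saa1, Saa2, Spink4, Wfdc2, Fabp4, Fabp6, Apoc1, Apoc2, Defb19, Defb6, S100a1 and S100g.

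Genes of mTECs that imitate other lineages were counted by lineage. Among the enterohepatic genes, 3 of 4 tested were called higher, Fabp1, Reg3g and Apoa4. Reg3g, an antimicrobial lectin of the gut, had 23.9 CPM in female pool 1, 45.9 in male pool 1, 105 in female pool 2 and 196 in male pool 2. Both pools 2 were above both pools 1 (log2 fold change 2.09, standard error 0.39, adjusted p = 0.0443). Among microfold genes 1 of 4 was called, Tnfaip2 (74.2 and 77.2 CPM in the female and male pools 1 and 168 and 313 in the pools 2, log2 fold change 1.67). In addition, 0 of 3 muscle genes and 0 of 2 neuroendocrine genes were called. Chrna1, the muscle acetylcholine receptor subunit, had 25.01 and 21.9 CPM in the female and male pools 1 and 49.0 and 149 in the pools 2 (log2 fold change 2.10, adjusted p = 0.0529). Over these lineages 4 of 13 genes were called higher and 11 were higher in both pairs, against 1.86% and 31.2% of all genes. Their median log2 fold change was 1.67 (0.99 after the correction for length and GC). Among cornified genes, 2 of 6 were called. Krtdap, a keratinocyte peptide, had 2.99 and 2.63 CPM in the female and male pools 1 and 13.9 and 50.4 in the pools 2 (log2 fold change 3.55). Sprr1a, a cornified envelope protein, had 4.08 and 6.81 CPM in the female and male pools 1 and 19.8 and 34.3 in the pools 2 (log2 fold change 2.26). Among tuft cell genes 1 of 6 was called, Gng13, the gamma subunit of the taste G protein, which had 1.36 and 0.956 CPM in the female and male pools 1 and 10.9 and 26.6 in the pools 2 (log2 fold change 4.08). Reg3g and Sprr1a lost their calls with the correction for length and GC (edgeR adjusted p = 0.0872 and 0.0797), Sprr1a without male pool 2 (adjusted p = 0.0673), and Tnfaip2 without male pool 1 (adjusted p = 0.144) and without female pool 1 (adjusted p = 0.104).

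General markers of thymic epithelium were not called. Of the 16 tested, 13 were higher in both pairs and 1 was lower, against 31.2% and 35.0% of all genes. The median log2 fold change was 1.04. The summed level was 478 CPM in female pool 1, 550.0 in male pool 1, 861 in female pool 2 and 816 in male pool 2, so that both pools 2 lay above both pools 1. Krt8, a keratin of simple epithelium, had 43.2 CPM in female pool 1, 63.2 in male pool 1, 122 in female pool 2 and 128 in male pool 2 (log2 fold change 1.22, standard error 0.26, adjusted p = 0.0532). Krt18, its partner, had a log2 fold change of 1.27 (adjusted p = 0.0545). Krt17 and Krt19 had 1.25 and 1.72 (adjusted p = 0.0675 and 0.0579). The keratins of the medulla gave smaller values, with 2.72 and 6.81 CPM in the female and male pools 1 and 7.92 and 13.5 in the pools 2 for Krt5 (log2 fold change 1.09, adjusted p = 0.213) and 7.07 and 11.0 CPM in the female and male pools 1 and 13.9 and 9.24 in the pools 2 for Krt14 (log2 fold change 0.30), where the groups overlapped. Spint2, a protease inhibitor and the highest of the list in CPM, had a log2 fold change of 0.49 (adjusted p = 0.310). Aire had 19.3 CPM in female pool 1, 19.7 in male pool 1, 31.7 in female pool 2 and 28.9 in male pool 2. The pools did not overlap, but the difference did not pass the test (log2 fold change 0.63, standard error 0.24, adjusted p = 0.164). Fezf2, which drives TSAs apart from Aire, had 4.35 and 9.68 CPM in the female and male pools 1 and 16.8 and 15.4 in the pools 2 (log2 fold change 1.12, adjusted p = 0.140). Over Aire and its partners 0 of 19 genes were called, with a median of -0.07. In the cortical list 1 of 8 genes was called, Tbata, against 1.86% called higher over all genes. Tbata had 13.6 and 19.5 CPM in the female and male pools 1 and 44.5 and 55.4 in the pools 2 (log2 fold change 1.58). It was not called without female pool 1 (edgeR adjusted p = 0.0757).

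Several genes of macrophages were called higher in pool 2. Of 23 tested, 5 were called higher and 0 lower, and 18 were higher in both pairs, against 1.86% called higher and 31.2% higher in both pairs over all genes. The list's median log2 fold change was 0.94 (0.48 in the female pair and 1.22 in the male pair). All 3 chains of complement C1q, which macrophages secrete, were called. C1qa had 164 CPM in female pool 1, 107 in male pool 1, 475 in female pool 2 and 584 in male pool 2. C1qb had 341 CPM in female pool 1, 219.7 in male pool 1, 887 in female pool 2 and 1242 in male pool 2. In both genes the pools 2 were well above the pools 1, with log2 fold changes of 1.97 (standard error 0.33) and 1.93 (standard error 0.37). C1qc had 1.89 (standard error 0.35). Lyz1, a lysozyme, had 102 and 82.4 CPM in the female and male pools 1 and 230.1 and 387 in the pools 2 (log2 fold change 1.74), and Hmox1, which degrades heme, had 24.5 and 20.2 CPM in the female and male pools 1 and 56.4 and 52.0 in the pools 2 (log2 fold change 1.29). The more general markers Lyz2 (log2 fold change 1.52, adjusted p = 0.0720), Cd68 (0.995, adjusted p = 0.0714) and Apoe (0.73, adjusted p = 0.347) were not called. Outside the list, the called genes Aif1 (2.42), Trem2 (2.43), Ms4a7 (1.95) and Ccl8 (3.24), chosen after their values were seen, are also known from macrophages. Of these, Aif1, Trem2 and Ms4a7 lost their calls without male pool 1 (adjusted p = 0.146, 0.122 and 0.0739). Without male pool 1 all 5 list members lost their calls, at adjusted p from 0.225 for Lyz1 to 0.380 for C1qb. Without female pool 1, calls were lost by C1qb (0.0885), C1qc (0.0641), Lyz1 (0.0626) and Hmox1 (0.0601). With the correction for length and GC, C1qb (1.19, adjusted p = 0.0538) and Ccl8 (1.68, no longer agreeing in both pairs) lost their calls, and the log2 fold change of C1qa was 1.18.

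Dendritic cell genes gave a mixed picture. Of 18 conventional dendritic cell genes 1 was called, Batf3, a transcription factor of cross-presenting dendritic cells, which had 38.1 CPM in female pool 1, 30.5 in male pool 1, 114 in female pool 2 and 208 in male pool 2. The groups did not overlap (log2 fold change 2.24, standard error 0.33, adjusted p = 0.0391). After the correction for length and GC the log2 fold change was 0.98 and the pairs no longer agreed in direction. The list's median was 0.19. In both pairs 8 of its genes were higher and 5 lower, against 31.2% and 35.0% of all genes. Over all genes 1.86% were called higher. Chemokines had 2 calls, Ccl20, which attracts CCR6-bearing cells, at 4.89 and 6.69 CPM in the female and male pools 1 and 19.3 and 37.0 in the pools 2 (log2 fold change 2.25). The other was the interferon-induced Cxcl9, at 47.8 and 42.1 CPM in the female and male pools 1 and 92.0 and 188 in the pools 2 (log2 fold change 1.64). Ccl17, made by dendritic cells, had 328 and 264 CPM in the female and male pools 1 and 793 and 2317 in the pools 2 (log2 fold change 2.39, adjusted p = 0.0527). Ccl5 had 701 and 441 CPM in the female and male pools 1 and 1385 and 3704 in the pools 2 (log2 fold change 2.16, adjusted p = 0.0628). MHC class II genes, through which the cells were sorted, had 0 of 15 called. H2-Ab1 had 29016 and 22184 CPM in the female and male pools 1 and 29186 and 27459 in the pools 2 (log2 fold change 0.15, adjusted p = 0.908). Cxcl9 was not called without male pool 1 (edgeR adjusted p = 0.144) or Ccl20 without male pool 2 (adjusted p = 0.0645).

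**Figure D3:**
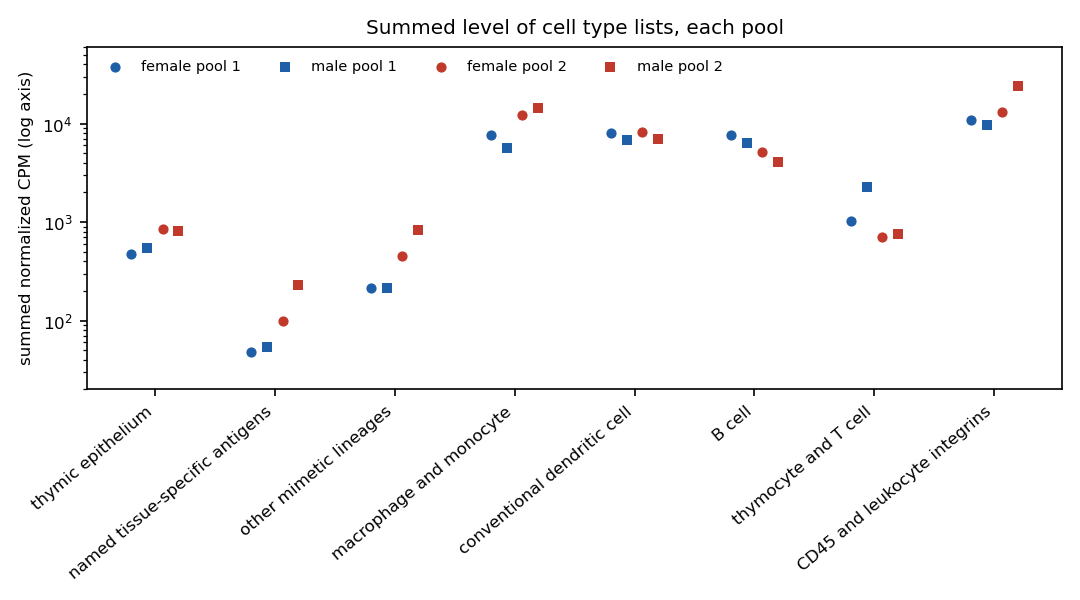
Summed normalized CPM (log axis) of 8 marker lists in each pool, with circles for females, squares for males, blue for pool 1 and red for pool 2. The epithelial, TSA, mimetic and macrophage sums were higher in both pools 2, the B cell and T cell sums were lower in both pools 2, and male pool 1 was the highest for T cell genes.

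Most lymphocyte genes had lower values in both pools 2, and few were called. With the correction for length and GC, 80 of 10865 genes were called lower, against 19 without it. Among the 80 were 8 of 25 tested genes of thymocytes and T cells, 2 of 7 of cytotoxic lymphocytes and 1 of 23 of B cells. Of 25 tested genes of thymocytes and T cells, 19 were lower in both pairs, against 35.0% of all genes. Their median log2 fold change was -1.77 (-0.75 in the female pair and -2.21 in the male pair). The summed level was 1023 CPM in female pool 1, 2289 in male pool 1, 707 in female pool 2 and 752 in male pool 2. Male pool 1 stood apart as the highest sample, and both pools 2 were below female pool 1. Satb1, a chromatin organizer of thymocytes and the 1 called member, had 99.8 CPM in female pool 1, 198 in male pool 1, 41.6 in female pool 2 and 43.5 in male pool 2 (log2 fold change -1.81, standard error 0.34, adjusted p = 0.0450). Dntt, the terminal transferase of immature lymphocytes, had 31.3 and 128 CPM in the female and male pools 1 and 6.93 and 13.1 in the pools 2 (log2 fold change -2.98, adjusted p = 0.0524), Lck, the T cell receptor kinase, had 124 and 278 CPM in the female and male pools 1 and 67.8 and 50.4 in the pools 2 (-1.77, adjusted p = 0.0545). Cd3e had 17.1 and 90.0 CPM in the female and male pools 1 and 8.41 and 7.32 in the pools 2 (-2.80, adjusted p = 0.0652). Cd4 and Cd8a, which dendritic cells can also carry, went the other way in both pairs without passing the test, at log2 fold changes of 0.61 and 0.23, the latter below 0 without female pool 1 or without composition scaling. Without male pool 1 the adjusted p of Satb1 by edgeR was 0.154. The part of leukocyte content in the other differences was not tested.

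In the B cell list 22 of 23 tested genes were lower in both pairs, against 35.0% of all genes, and 0 were called in either direction. The median log2 fold change was -0.69 (-0.50 in the female pair and -0.75 in the male pair). Its sum was 7610.1 CPM in female pool 1, 6369 in male pool 1, 5153 in female pool 2 and 4084 in male pool 2. Cd79a had the values given above, at a log2 fold change of -0.52 (adjusted p = 0.434). Ms4a1, which encodes CD20, had 477 and 391 CPM in the female and male pools 1 and 234 and 178 in the pools 2 (log2 fold change -1.07, adjusted p = 0.0796). Each B cell gene named here was lower in both pools 2 than in both pools 1. The general leukocyte list had 10 of 12 genes lower in both pairs and a median of -0.45. Its sum was higher in both pools 2 because of Cd52, a short glycoprotein gene that had 3642 and 2745 CPM in the female and male pools 1 and 7219 and 19779 in the pools 2 (log2 fold change 2.08, adjusted p = 0.0922).

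The 19 genes called lower included several of lymphocytes. Cdk6, a cell cycle kinase, had the lowest p of them, with 40.8 CPM in female pool 1, 39.9 in male pool 1, 10.9 in female pool 2 and 10.8 in male pool 2. The values were nearly equal within each group, and pool 1 was 3.72-fold higher (log2 fold change -1.89, standard error 0.26, adjusted p = 0.0391). Il2rb, the interleukin 2 and 15 receptor chain of NK and T cells, had 46.8 CPM in female pool 1, 55.6 in male pool 1, 15.8 in female pool 2 and 10.8 in male pool 2 (log2 fold change -1.96, standard error 0.29, adjusted p = 0.0391). It was the 1 call among 7 tested genes of cytotoxic lymphocytes. Tnfsf11, which encodes RANKL, the ligand by which lymphoid cells drive mTEC maturation, had 11.4 CPM in female pool 1, 27.5 in male pool 1, 1.98 in female pool 2 and 0.770 in male pool 2. It had the largest fold of the genes called lower (log2 fold change -3.90, standard error 0.65, adjusted p = 0.0391). Pools 2 held at most 4 counts each. GIMAP genes, which encode lymphocyte GTPases, were chosen as a family after their values were seen. All 8 were lower in both pairs, against 35.0% of all genes. Of the 8, Gimap9 was called, against 0.175% of all genes called lower. It had 30.4 and 36.4 CPM in the female and male pools 1 and 13.9 and 13.5 in the pools 2 (log2 fold change -1.30). Further genes called lower were Pde3b (a phosphodiesterase, log2 fold change -1.83), Eif2ak3 (the PERK sensor of unfolded protein in the endoplasmic reticulum, -1.40), Abca1 (a cholesterol exporter, -1.20), Crkl (a signalling adaptor, -1.25), Itpr2 (a calcium channel, -1.17), Mef2d (a transcription factor, -1.22), Kdm5b (a histone demethylase, -1.42), Ugcg (a glycolipid enzyme, -1.33), Emb (-1.42), Fam102a (-1.73), Bod1 (-1.62), Slain1 (-2.11), Urb1 (-1.64) and C330007P06Rik (-1.50). Of these 19 genes, 5 lost their calls without female pool 1, 13 without male pool 1, 9 without male pool 2 and 0 without female pool 2. Tnfsf11 was among those lost without male pool 2 (adjusted p = 0.0645). Gimap9 was among those lost without male pool 1. With RLE scaling in place of TMM, and all 4 pools kept, 14 of the 19 lost their calls, Gimap9 among them.

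Most genes of mitochondrial respiration and of the ribosome had higher values in both pools 2, and male pool 2 had the highest. Of 77 genes of oxidative phosphorylation tested, 7 were called higher and 0 lower and 61 were higher in both pairs, against 1.86% called higher and 31.2% higher in both pairs over all genes. Their log2 fold changes had a median of 1.31 (0.50 in the female pair and 1.81 in the male pair). The called genes were Uqcr11 and Uqcrq of complex III, Atp5k, Atp5e and Atp5j2 of complex V, and Ndufb7 and Ndufv3 of complex I. Atp5k had 102 CPM in female pool 1, 95.3 in male pool 1, 323 in female pool 2 and 839 in male pool 2 (log2 fold change 2.56, standard error 0.44, adjusted p = 0.0391). Uqcr11 had 280.0 CPM in female pool 1, 248 in male pool 1, 773 in female pool 2 and 1817 in male pool 2 (log2 fold change 2.29, standard error 0.44, adjusted p = 0.0455). Male pool 2 was the highest sample in both genes. Atp5b, the catalytic subunit of ATP synthase, had 1474 and 1585 CPM in the female and male pools 1 and 1284 and 1101 in the pools 2, with both pools 2 below both pools 1 (log2 fold change -0.36, adjusted p = 0.568). Ribosomal protein genes had 59 of 77 higher in both pairs and 0 called, with a median of 0.93 (0.26 in the female pair and 1.46 in the male pair). A further 3 small proteins outside these lists, chosen after their values were seen, were also called, Atox1, a copper chaperone, at 594 and 501 CPM in the female and male pools 1 and 2075 and 5448 in the pools 2, Cox17, which delivers copper to complex IV (log2 fold change 2.20), and Romo1 (2.23). In glycolysis, Hk2, a hexokinase, was the 1 called gene of 15 (54.6 and 38.8 CPM in the female and male pools 1 and 145 and 382 in the pools 2, log2 fold change 2.51), while the list's median was -0.30.

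Genes called higher were often short, a property that the calls did not use. The summed exonic length was 1264 bases in the median over the genes called higher, 5428 over those called lower and 3653 over all tested genes. Of the 183 called-higher genes with a length, 75 (41.0%) were under 1000 bases, against 4.69% of all tested genes with one. Across 4 equal bins of the tested genes by length, the median log2 fold change was 0.31 in the shortest, then -0.07, -0.14 and -0.17. Of the genes called higher, 129 lay in the shortest bin, where 5.04% of genes were called higher. A correction for length and GC content brought the 4 medians to between -0.07 and -0.04 and called 228 genes higher and 80 lower, of which 144 were shared with the 221. With it, the median of the oxidative phosphorylation list was 0.35 and that of the ribosomal proteins 0.42. After it, 25 oxidative phosphorylation genes were higher and 36 lower in both pairs, against 61 higher before, and 22 ribosomal protein genes were higher and 30 lower, against 59 higher before. In all, 9 oxidative phosphorylation genes were then called higher, Uqcrq, Atp5e, Atp5j2, Ndufb7 and Ndufv3 among them. Uqcr11 (edgeR adjusted p = 0.0839), Atox1 (0.0586) and Romo1 (0.0831) were not called and Atp5k (log2 fold change 1.12) no longer agreed in both pairs. The medians of thymocyte and T cell genes (-1.81), B cell genes (-0.73), macrophage genes (0.999), heat shock genes (0.51) and thymic epithelium (0.87) moved by less than 0.2. Without male pool 1, all the called respiration genes but Atp5k were not called, at log2 fold changes from 1.81 for Atp5e to 2.20 for Uqcr11. The same genes were not called without female pool 1, at log2 fold changes from 1.98 for Ndufv3 to 2.37 for Uqcr11. With RLE scaling in place of TMM they were not called either (edgeR adjusted p from 0.0525 to 0.0565).

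**Figure D4:**
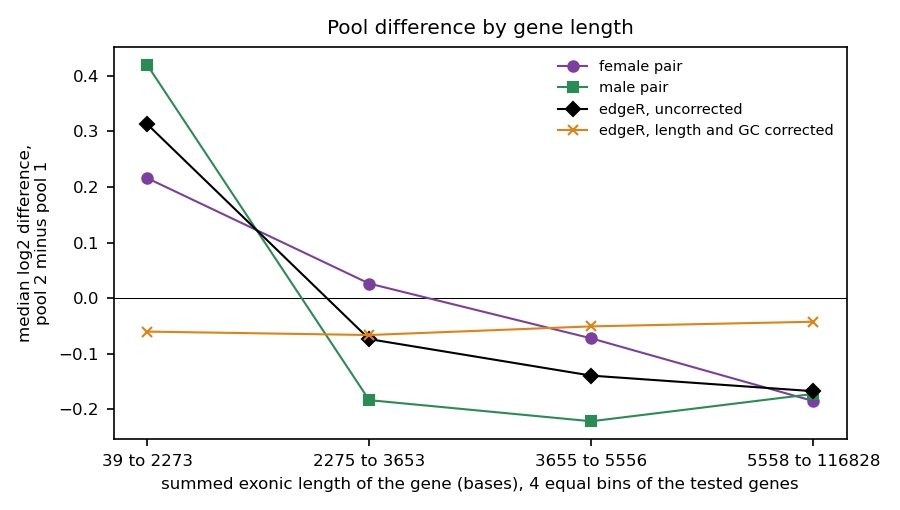
Median log2 difference, pool 2 minus pool 1 (y axis), in 4 equal bins of the tested genes by summed exonic length in bases (x axis), for each pair, for edgeR's fold change and for the fold change corrected for length and GC content. The shortest genes had a median above 0 in both pairs, and the corrected medians lay between -0.07 and -0.04 in every bin.

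The remaining lists held few calls. Over all genes 31.2% were higher and 35.0% lower in both pairs. Interferon-stimulated genes had 18 of 28 higher in both pairs, 0 called and a median log2 fold change of 0.36. Splicing factors had 24 of 40 lower in both pairs, 0 called and a median of -0.47. Genes of cholesterol and lipid synthesis had 10 of 17 lower in both pairs, 0 called and a median of -0.56. Endoplasmic reticulum chaperones and unfolded protein response genes had 1 of 22 called, Eif2ak3, against 0.175% of all genes called lower. In both pairs 13 of the 22 were lower, with a median of -0.25. The RANK, CD40 and NF-kB list, through which mTECs mature, had 0 of 25 called and a median of -0.07, the constitutive proteasome 0 of 34 and -0.02, and immediate early genes, which dissociation of tissue can induce, 0 of 25 and -0.21. Markers of neutrophils (10 tested), fibroblasts (6) and endothelium (6) had 0 calls. The neutrophil median went from 0.09 to -0.78 with the correction for length and GC, with 1 gene called lower.

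**Figure D5:**
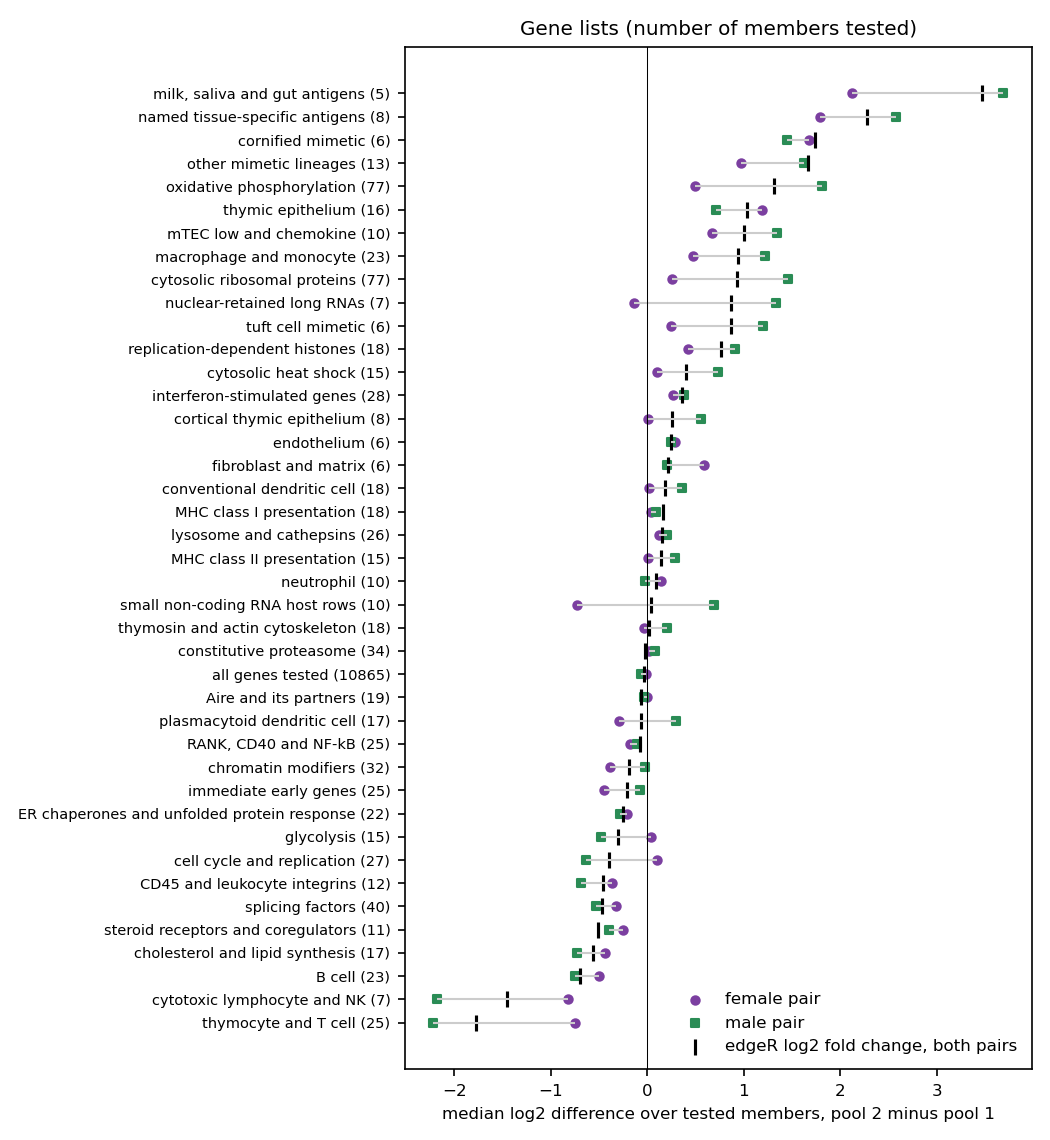
Median log2 difference, pool 2 minus pool 1, over the tested members of each gene list (number of members in brackets), for the female pair (circles), the male pair (squares) and edgeR's fold change (ticks), for lists with at least 5 members tested. By edgeR's fold change the milk, saliva and gut, named TSA and cornified lists had the highest medians and the B cell, cytotoxic and T cell lists the lowest, and the medians of several lists had opposite signs in the pairs.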

How the data were processed

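RNA of cells sorted as mTECs, which also held leukocyte transcripts, was measured in 4 pools of 10 mice each, numbered 1 and 2 within each sex. The authors removed low-quality reads with Trimmomatic, mapped the rest to mm9 by TopHat2 and tallied reads over genes by HTSeq. The deposited table holds raw counts for 23366 symbols. The annotation and strand setting of the counting are not given in the sources used here. The 5 rows that name no gene, 66.9% to 70.2% of all rows' sum, were left out.

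Pool 2 was compared with pool 1 by edgeR's quasi-likelihood test (edgeR 4.0.16, R 4.3.3), two-sided, with TMM scaling, filterByExpr (minimum count 10), prior count 0.125 and Benjamini-Hochberg adjustment at 0.05 over all tested genes. Standard errors are the log2 fold change over the square root of F. By chi-square over genes, no 2 pools were duplicates. Each pool is a separate group of mice, and p-values measure the spread between 2 pools a side, which also differ in sex. Lengths and mm9 positions came from NCBIM37 (90.3% of symbols matched), and promoters from RefSeq on GRCm38.p6.

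Lists were described by counts and medians, with no list test. The members of 41 lists were chosen with earlier results of these data known, and 12 symbol families after the values were seen. Genes named are the 15 called higher with the lowest p, the 10 with the largest fold, the 15 called lower with the lowest p, and per list up to 5 called and the 3 most abundant members, with Aire, Fezf2, Ptprc, Epcam, Foxn1, Krt5, Krt14, Cd79a, H2-Ab1, Xist and Ddx3y; not every gene the rule covers is described, and the remaining genes named were chosen after their values were seen. Alternatives covered scaling, filter, test (DESeq2 1.42.0 included), prior count, sex as a block, depth, each pool left out and a correction for length and GC.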

Additional observations from a re-analysis of the deposited data

Results flagged for a closer look

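The following values had opposite directions in the female pair and in the male pair. The difference between the pairs was not tested, since each pair holds 1 pool a side. All are log2 differences of pool 2 minus pool 1, as medians over the tested members of a list or as the value of a gene. Nuclear-retained long RNAs had -0.14 in the female pair and 1.33 in the male pair. The list of small non-coding RNA host genes had -0.72 and 0.70 in the same order, over 10 tested genes. Cell cycle and replication genes had 0.10 and -0.63, glycolysis genes 0.045 and -0.48, plasmacytoid dendritic cell genes -0.29 and 0.30, neutrophil genes 0.14 and -0.023, and thymosin and actin genes -0.035 and 0.21.

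Among single genes, Krt14, a keratin of the medulla, had 0.97 in the female pair and -0.25 in the male pair. Xist, the RNA that silences an X chromosome in female cells, had -0.79 in the female pair and 3.01 in the male pair. It stood at 94.9 CPM in female pool 1 and 54.9 in female pool 2, and at 0.836 in male pool 1 and 6.93 in male pool 2, so male pool 2 was still below both female pools. Ddx3y, a Y chromosome gene, had 53.2 CPM in male pool 1 and 34.3 in male pool 2, and no count in a female pool.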

How the results depend on the processing

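The count of 221 calls (202 higher, 19 lower) moved with most choices. It was 121 (116 and 5) with RLE scaling, 758 (375 and 383) by library size only, 1449 (986 and 463) without a filter, 651 (586 and 65) with DESeq2, 1138 (868 and 270) with edgeR's exact test and 1254 (946 and 308) with its likelihood ratio test. With sex as a replicate block it was 805 (646 and 159), and with that block and the correction for length and GC, which was added after seeing the data, 870 (590 and 280). The pools of one sex are different mice, and the difference between the sexes in pool 1 had a correlation over genes of 0.03 with that in pool 2, so the block is given as an alternative only. The genes called lower numbered 29 when 2 pools had to exceed 1 CPM and 80 with the correction for length and GC. Thinned to the smallest library, the median of 20 draws was 1 call, 1 higher and 0 lower. Without each pool in turn the calls ran from 174 to 2620, the higher calls from 162 to 1696 and the lower calls from 12 to 924, and a lone pool was then assumed to vary like the other group. The cause of these shifts was not tested, except that thinning and leaving out a pool remove reads.

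The mean number of genes with a read at equal depth was 388 higher in pools 2, and 150.1 higher for at least 3 reads. The median log2 fold change of B cell genes was -0.97 by library size only and ran from -0.93 to -0.47 without each pool. That of named TSAs was 1.53 with the correction for length and GC and 1.60 with the block added, and that of oxidative phosphorylation genes 0.35 and 0.33. Directions that turned by library size only included those of MHC class I presentation (-0.13), endothelium (-0.10) and lysosome and cathepsins (-0.14). They also included MHC class II presentation (-0.16), neutrophil genes (-0.36), thymosin and actin (-0.27) and small non-coding RNA hosts (-0.32). Among genes they included Epcam (-0.12), Krt14 (-0.00916), H2-Ab1 (-0.14) and Cd8a (-0.12). With the correction for length and GC, alone and with the block, the direction turned for replication-dependent histones (-0.40 and -0.41), neutrophil genes (-0.78 and -0.72), small non-coding RNA hosts (-0.37 and -0.35), MHC class II presentation (-0.022 and -0.019), thymosin and actin (-0.013 and -0.0095) and H2-Ab1 (-0.10 and -0.085). Xist had 0.26 with the block and 0.45 with the block and that correction. Without each pool in turn, the signs that changed included those of Aire and its partners (-0.15 to 0.032), the RANK, CD40 and NF-kB list (-0.22 to 0.12) and MHC class I presentation (-0.020 to 0.30). They also included MHC class II presentation (-0.017 to 0.35), neutrophil genes (-0.93 to 1.17), thymosin and actin (-0.059 to 0.17) and small non-coding RNA hosts (-0.22 to 0.71). Among genes they included H2-Ab1 (-0.048 to 0.34), Cd8a (-0.058 to 0.57), Xist (-2.66 to 5.13) and Ddx3y (-10.08 to 8.61). Of 92 called genes named, 92 kept their call with the block, 91 with DESeq2, 55 with RLE scaling, 59 with the correction for length and GC (57 of the 90 that have a length), and 1 at equal depth.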
